A study of Mus musculus with 4514 samples.

Results

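The 348 wild-type hepatocytes sequenced one by one in the knockout arm of a study of mouse liver maturation are described here, as the level that separates 1 control pool from the other before any factor is removed. They are the cells of the Smart-seq3 count table whose titles begin with the stage P60+14d and the treatment WT, numbered P60_14d_WT_1 to P60_14d_WT_184, and those of the stage P12+40d and the treatment WT, numbered P12_40d_WT_1 to P12_40d_WT_164. The whole table holds 1226 Smart-seq3 cells, and the whole series 4514 samples. Smart-seq3 reads transcripts over their full length, 1 library for each cell, so every cell carries a deep library of its own.

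Both groups carry the Rosa-Cas9 genotype, that is, Cas9 inserted at the Rosa locus, and both are given as liver hepatocytes. The P60+14d WT cells have the age label P60+14d and the P12+40d WT cells the age label P12+40d. The labels do not spell that notation out, and they do not say how many animals, which sexes, which days of collection or which vector, if any, lie behind a group. The other cells of the same table, labelled Nr2f2-KO and Usf1-KO at both stages and Xbp1-KO and Tef-KO at P12+40d, share the genotype. The count of the targeted gene was below that of the WT pool of the stage in 2 of these 6 pools, so KO stands for the label here. Since no label ties a cell to an animal, each group is treated as 1 pool of cells, and no test between the WT pools is possible. Intervals given for the pools cover counting error only.

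Hepatocytes keep their own circadian clock. BMAL1 (gene Arntl) with CLOCK or NPAS2 switches on genes through a DNA word called the E-box, among them the Per and Cry repressors, the REV-ERB repressors (Nr1d1 and Nr1d2) and the activators DBP and TEF, while the REV-ERBs shut Arntl, Npas2 and Clock down again. DBP, TEF and HLF are the PAR bZIP factors, which bind the D-box and act on genes of drug, haem and bile acid metabolism. Hepatocytes also divide their work along the lobule: cells near the central vein make Cyp2e1 and glutamine synthetase, and cells near the portal vein make urea cycle and gluconeogenic enzymes.

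The pools were alike in depth and in cell type. P60+14d WT cells held 137580291 counts in all, with a median of 738874 counts and 8927 genes per cell, against 137925496 counts, 854078 counts and 9113.5 genes in P12+40d WT cells. With every cell thinned to 200000 counts, which no cell fell short of, the medians were 7725 and 7722 genes. All 8 hepatocyte markers looked up were abundant in both pools, from Alb (48016 CPM in P60+14d WT and 43100.4 CPM in P12+40d WT; CPM, counts of the pool scaled to the same total, without spike-ins) to Hnf4a (312.2 and 271.1 CPM). Markers of other liver cells were near 0: the summed level of 8 endothelial genes was 12.03 CPM in P60+14d WT and 6.93 CPM in P12+40d WT, of 11 macrophage genes 4.07 and 5.42 CPM, and of 9 stellate cell genes 7.92 and 2.54 CPM. Krt19 and Cldn7 of cholangiocytes were at 0 in both pools, and the sum of 7 cholangiocyte genes, 7.20 and 26.5 CPM, was nearly all Spp1 and Sox9, which hepatocytes also make. Adult globin (Hba-a1) stood at 11.7 CPM in P60+14d WT and 0.029 CPM in P12+40d WT, and was seen in 9.78% and 1.22% of cells. The Y-linked gene Ddx3y had 48.1 CPM in P60+14d WT and 53.1 CPM in P12+40d WT.

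Of 40824 genes in the table, 4482 had at least 20 CPM and a count in at least 20% of the cells of 1 or both WT pools, and these were compared. At least 2-fold apart were 3.88% of them: 86 genes (1.92%) were higher in P60+14d WT and 88 (1.96%) lower. With libraries scaled by TMM factors, which moves the median of all genes to 0.01, the split was 71 higher and 96 lower. The median log2 fold over the 4482 genes was 0.07, with quartiles at -0.14 and 0.31, so that most genes differed little. Past 4-fold were 11 genes higher and 19 lower in P60+14d WT. Leaving out genes known by a Gm or clone number, the 12 largest folds were those of Rps26-ps1, Cyp4a10, Usp2, Cyp4a14, Pcsk4, Ciart, Dbp, Tef, Per3, Hsd17b6, Rgs16 and Cyp2a5, in that order. Of these, Usp2, Ciart, Dbp, Tef and Per3, are clock genes. The 12 smallest were those of Saa2, Cdkn1a, Lcn2, Saa1, Ddit4, Orm2, Igfbp1, Elovl3, Mt2, Lgalsl, Slc45a3 and Spp1, of which Saa2, Lcn2, Saa1 and Orm2 are acute phase genes.

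**Figure D1:**
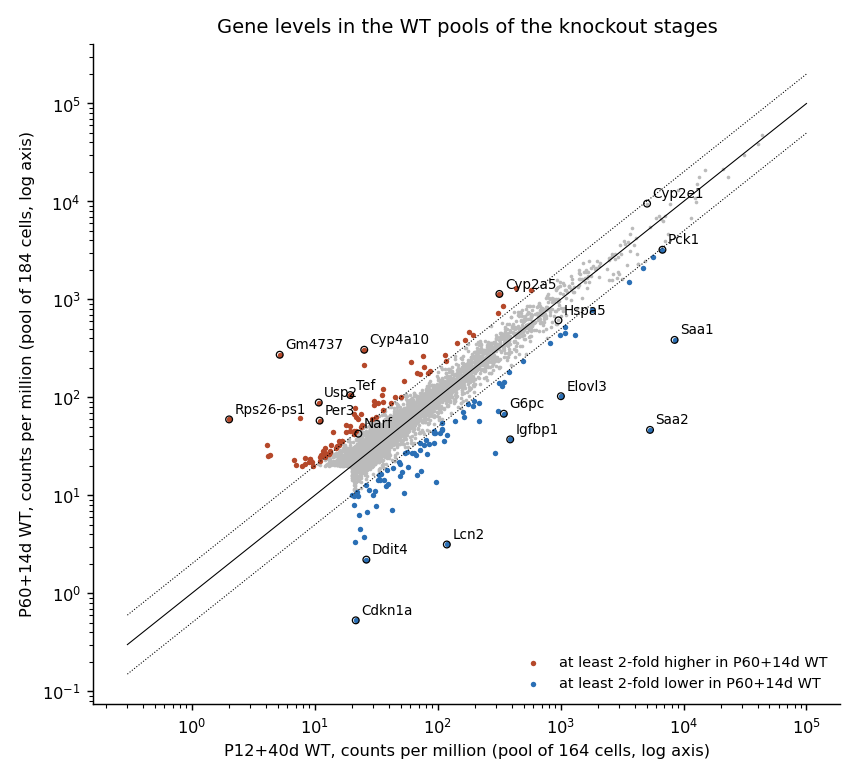
Pooled level of 4482 genes in P60+14d WT (vertical) against P12+40d WT (horizontal), both in CPM on log axes, each point 1 gene summed over the cells of a pool. The solid line marks equal levels and the dotted lines 2-fold; 86 genes lie above and 88 below, with Saa2, Saa1, Lcn2 and Cdkn1a farthest below and Gm4737, Rps26-ps1 and Cyp4a10 farthest above.

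Several of the largest folds were those of clock genes. Usp2, a deubiquitinase that follows the clock, had 88.6 CPM in P60+14d WT (95% Poisson interval 87.1 to 90.2) and 10.8 CPM in P12+40d WT (10.3 to 11.4), an 8.20-fold difference, and had a count in 100% and 84.1% of cells. Ciart, a repressor of the CLOCK and BMAL1 pair, had 25.5 and 4.18 CPM, in 98.9% of P60+14d WT cells and 47.6% of P12+40d WT cells. For Dbp the pools stood at 25.9 CPM in P60+14d WT and 4.34 CPM in P12+40d WT, in 98.9% and 49.4% of cells. Each of these genes was thus near-universal in P60+14d WT cells. The P12+40d WT cells without them were mostly numbered up to 100. In runs of 20 cells up to there, described below, Usp2 had a count in 65 to 85%, Ciart in 15 to 40% and Dbp in 5 to 40%. In the runs after cell 100 the shares were 100%, 75 to 95% and 75 to 100%.

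Tef (chromosome 15, 81802673 to 81826863, GRCm38.p6), the PAR bZIP activator that the study also knocked out, had 105.6 CPM in P60+14d WT and 19.49 CPM in P12+40d WT, 5.42-fold apart. The median cell held 97.6 CPM in P60+14d WT and 17.2 CPM in P12+40d WT. The inner 80% of cells ran between 50.4 and 163.2 CPM in P60+14d WT and between 1.25 and 45.7 CPM in P12+40d WT, so those ranges did not meet. Per3, a period gene, had 57.95 CPM in P60+14d WT and 10.98 CPM in P12+40d WT. With cells thinned to 200000 counts, Per3 was seen in 99.5% of P60+14d WT cells and 53.05% of P12+40d WT cells.

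Of the 14 genes on the side of the loop that BMAL1 switches on, 12 passed the filter. Of these 10 were at least 2-fold higher in P60+14d WT, beside 1.92% of all compared genes. Ciart, Dbp, Per1, Per2 and Nr1d1, among others, reached 20 CPM in P60+14d WT alone, so the filter leans that count to higher. The median log2 fold of all 14 was 1.59, beside 0.07 for the 16903 genes with 10 or more counts. Per1 (20.7 CPM in P60+14d WT and 8.32 CPM in P12+40d WT) and Per2 (23.1 and 6.81 CPM) code for the core repressors. Nr1d1 (20.2 and 9.71 CPM) and Nr1d2 (88.6 and 41.7 CPM) code for the REV-ERBs, and Bhlhe40 (60.7 and 22.4 CPM) for the repressor DEC1. Hlf, at a log2 fold of 0.67, passed the filter without reaching 2-fold.

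Of the other side of the loop, 5 of 6 genes were at least 2-fold lower in P60+14d WT, 2 of them among the 3 that passed the filter. Those 2, Clock and Nfil3, reached 20 CPM in P12+40d WT alone. Over all compared genes 1.96% were at least 2-fold lower. Arntl had 0.618 CPM in P60+14d WT and 9.66 CPM in P12+40d WT, in 14.1% and 66.5% of cells. Npas2, its alternative partner, had 0.0872 and 1.46 CPM, and Clock, the usual one, 8.06 and 20.7 CPM. Nfil3, a repressor that competes with the PAR bZIP factors for the D-box, had 7.73 CPM in P60+14d WT and 31.4 CPM in P12+40d WT. The median log2 fold of the 6 genes was -1.69. Arntl, Npas2 and Cry1 did not reach 20 CPM in either pool, and Rora, which codes for an activator of Arntl, was at 89.3 and 91.9 CPM.

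Promoter sequence is shown for Ciart, Tef and Per3, because it is through canonical words such as theirs that the factors above are known to act. These genes were chosen, all from the side of the loop that BMAL1 switches on. Per1, Bhlhe41 and Cry1 also hold the E-box, and their sequences are not shown. Nor is that of Nfil3, which holds another word given below. The 250 bases before each RefSeq start site (GRCm38.p6) were searched on both strands for the E-box CACGTG and for the D-box TTATGTAA or TTACGTAA, and matches are in capitals. Ciart (chr3:95882229-95882478, minus strand) holds 3 E-boxes, Tef 1 at each of 2 start sites (chr15:81802423-81802672 and chr15:81811164-81811413, plus strand) and Per3 (chr4:151044666-151044915, minus strand) 2 D-boxes.
Ciart: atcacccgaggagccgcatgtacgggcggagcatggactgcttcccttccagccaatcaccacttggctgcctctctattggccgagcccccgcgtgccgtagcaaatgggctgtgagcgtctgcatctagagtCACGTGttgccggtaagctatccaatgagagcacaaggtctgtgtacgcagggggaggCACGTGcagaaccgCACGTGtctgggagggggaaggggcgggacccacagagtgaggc
Tef, upstream start: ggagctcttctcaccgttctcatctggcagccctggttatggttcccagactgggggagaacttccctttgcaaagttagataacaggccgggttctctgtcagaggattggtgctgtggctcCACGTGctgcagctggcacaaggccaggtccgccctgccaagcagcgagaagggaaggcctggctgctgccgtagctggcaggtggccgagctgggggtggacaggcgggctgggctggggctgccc
Tef, downstream start: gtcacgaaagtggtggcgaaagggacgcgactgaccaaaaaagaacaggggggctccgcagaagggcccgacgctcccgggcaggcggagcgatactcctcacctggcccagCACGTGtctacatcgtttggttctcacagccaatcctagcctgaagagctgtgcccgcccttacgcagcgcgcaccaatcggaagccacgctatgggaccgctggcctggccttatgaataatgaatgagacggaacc
Per3: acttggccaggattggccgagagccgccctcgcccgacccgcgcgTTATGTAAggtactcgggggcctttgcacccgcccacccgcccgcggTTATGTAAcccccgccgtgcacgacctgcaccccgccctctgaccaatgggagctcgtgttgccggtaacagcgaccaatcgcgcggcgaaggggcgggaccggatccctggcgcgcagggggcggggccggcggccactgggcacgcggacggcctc

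The 2 E-boxes of Ciart nearest the start site begin 58 and 44 bases before it. Of the 14 genes of the BMAL1-driven side, 11 matched a promoter by symbol, and 4 of them (Tef, Per1, Ciart, Bhlhe41) hold the E-box. Of the 6 genes of the Arntl side 1 holds it, Cry1, which is also known as a target of BMAL1 but was listed on that side. Counting any start site of a gene, the E-box was found for 6.86% of the 27025 genes searched. The D-box was found in Per3 alone of the 11, in 0 of the 6 and for 1.10% of all genes searched. The word TAGGTCA, bound by the REV-ERBs and RORs, was found in Nfil3 alone among the 6 genes of the Arntl side. It was found in 0 of the 11 and for 2.55% of all genes searched. A match is a string of letters in this window and says nothing about binding in these cells.

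Genes known to answer to the PAR bZIP factors were mostly higher in P60+14d WT as well. Of 8 such genes, 7 passed the filter and 5 of them were at least 2-fold higher, beside 1.92% of all compared genes. The median log2 fold over all 8 was 1.22. Nr1i3 (the receptor CAR, a switch for drug metabolism) had 122.1 CPM in P60+14d WT and 36.1 CPM in P12+40d WT. Por, the electron donor of all microsomal P450 enzymes, had 271.4 and 114.6 CPM, and Alas1, the first enzyme of haem synthesis, 382 and 166.5 CPM. Cyp7a1, the rate-limiting enzyme of bile acid synthesis, had 206.4 CPM in P60+14d WT and 77.1 CPM in P12+40d WT. Cyp2a5, a coumarin hydroxylase of central hepatocytes, had 1138 and 317.98 CPM. Cyp2b10 went the other way at 1.29 and 2.35 CPM, under the filter.

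The clock state was not uniform within the P12+40d WT pool. A score was taken for each cell as the mean log2(CPM + 1) of the 14 BMAL1-driven genes minus that of the 6 genes of the Arntl side. It ran from 0.91 to 4.65 in P60+14d WT cells, with a median of 2.68, and from -3.52 to 2.76 in P12+40d WT cells, with a median of -1.58. Within P12+40d WT it was split by an empty stretch of 1.03 units, from -1.02 to 0.02. The 95 cells below the gap are exactly those numbered 1 to 95 in their titles, and the 69 cells above it are those numbered 96 and higher. The widest gap between neighbouring P60+14d WT cells was 0.38 units. Thinned to 200000 counts, 0 P60+14d WT cells and 97 P12+40d WT cells lay below 0.

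To show this spread, each pool was cut into runs of 20 cells in the order of the title number, the last run taking the remainder, which gave 9 runs of P60+14d WT and 8 of P12+40d WT. The labels do not say what the number marks, runs are not replicates, and the cut was chosen after the split had been seen. Arntl ranged from 0.201 to 1.10 CPM over the 9 runs of P60+14d WT. In P12+40d WT it was between 11.1 and 19.3 CPM in the 5 runs up to cell 100, and between 0.871 and 0.988 CPM in the 3 runs after it. Per3 lay between 35.8 and 79.7 CPM in P60+14d WT, against 0.0594 to 9.67 CPM in the first 5 and 20.4 to 25.4 CPM in the last 3 runs of P12+40d WT. Even the last 3 runs thus stood below every P60+14d WT run for Per3, while for Arntl they fell within the P60+14d WT range.

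Nr1d1 and Nr1d2, like Arntl and Per3, are genes of the score, so their split is part of it and no separate support. Nr1d1 had 10.4 to 30.1 CPM in the runs of P60+14d WT, against 0.497 to 6.12 CPM in the first 5 and 16.1 to 26.4 CPM in the last 3 runs of P12+40d WT. Nr1d2 had 68.2 to 126.2 CPM in P60+14d WT, against 6.29 to 29.6 CPM in the first 5 and 83.3 to 89.2 CPM in the last 3 runs of P12+40d WT. Both REV-ERB genes were therefore about as high in the late-numbered P12+40d WT cells as in P60+14d WT cells, and their pool difference rests on cells 1 to 100. For Usp2 (63.97 to 124.8 CPM in P60+14d WT and 3.76 to 24.04 CPM in P12+40d WT), Dbp, Tef, Ciart, Per1 and Per2 no run of one pool reached a run of the other.

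**Figure D2:**
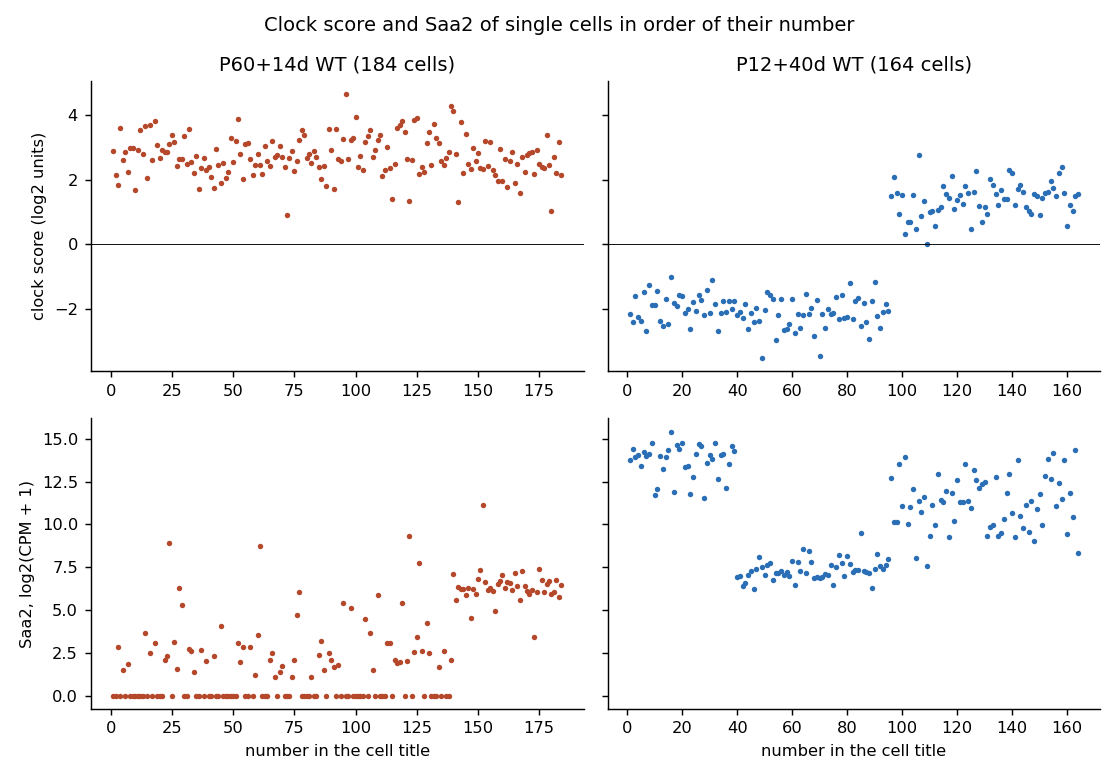
Clock score (top, log2 units) and Saa2 level (bottom, log2 of CPM + 1) of every cell in order of the number in its title, P60+14d WT on the left and P12+40d WT on the right. The P12+40d WT clock score steps from below -1.02 to above 0.02 between cells 95 and 96. Saa2 changes level at cells 39 and 95 in P12+40d WT. In P60+14d WT the last cell without a Saa2 count is P60_14d_WT_138.

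Across all compared genes, 76 of those past 2-fold also had no overlap between the runs of the pools, 41 of them higher and 35 lower in P60+14d WT. The number depends on the length of the runs, with 22 higher and 23 lower for runs of 10 cells and 53 higher and 50 lower for runs of 40. The 76 genes are 1.7% of the 4482, while 6.29% had no overlap at any fold, 4.46% of the compared genes being higher in every P60+14d WT run and 1.83% lower. The other 98 genes past 2-fold overlapped. Inside a single pool, the highest and lowest run differed at least 2-fold, on the log2(CPM + 1) scale, for 1333 genes (29.7%) in P60+14d WT and 966 genes (21.6%) in P12+40d WT. Part of that range is the sampling of 20 cells, whose share was not tested.

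Cyp2e1 (chromosome 7, 140763819 to 140774990, GRCm38.p6), which oxidises ethanol and paracetamol and marks the central lobule, was the most abundant of the 3 genes given as markers of these pools, with Tef and Narf. It had 9504 CPM in P60+14d WT and 5052 CPM in P12+40d WT, a 1.88-fold difference that falls just short of the 2-fold line. The median cell held 10709 CPM in P60+14d WT and 4288 CPM in P12+40d WT. The spread among cells was wide, with the middle quartiles from 2845 to 15124 CPM in P60+14d WT and from 923 to 8983 CPM in P12+40d WT. By runs, P60+14d WT ranged from 6242 to 15298 CPM and P12+40d WT from 3699 to 6531 CPM, so 1 end of each range met.

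Narf (chromosome 11, 121237236 to 121255856, GRCm38.p6), whose product is named for its binding to farnesylated prelamin A, behaved in the same proportion at a far lower count. It had 42.7 CPM in P60+14d WT and 22.7 CPM in P12+40d WT, 1.88-fold apart, with runs from 35.9 to 51.9 CPM and from 14.5 to 32.4 CPM. Those runs did not overlap. Within P12+40d WT the Narf level followed the clock split, at 14.5 to 22.3 CPM in the first 5 runs and 28.1 to 32.4 CPM in the last 3.

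The pools also differed in the sum of the lobule genes. A central-minus-portal score over the lobule genes that passed the filter had a median of 0.36 in P60+14d WT cells and 0.02 in P12+40d WT cells. With both pools cut at the same 2 values into 3 ranges of equal size over all cells, 71 P60+14d WT cells (38.6%) and 45 P12+40d WT cells (27.4%) fell in the central range. The portal range held 52 (28.3%) and 64 (39.02%). The median score of single runs ran from -0.38 to 0.66 in P60+14d WT and from -0.80 to 0.35 in P12+40d WT, so the difference between pools lies within the spread of their runs. The score is a continuous range; 13 P60+14d WT and 16 P12+40d WT cells lay within 0.1 of a cut.

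Inside each range Cyp2e1 remained higher in P60+14d WT. It had 15230 CPM in P60+14d WT and 10309 CPM in P12+40d WT in the central range, 9548 and 5690 CPM in the middle range, and 1233 and 1006 CPM in the portal range. With the ranges weighted equally its log2 fold was 0.61 in place of 0.91, whereas that of Tef was 2.43 in place of 2.44 and that of Narf 0.87 in place of 0.91. Cyp2e1 itself is one of the genes of the score.

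Other central genes did not all follow. Oat (ornithine aminotransferase) had 745 CPM in P60+14d WT and 414 CPM in P12+40d WT, and Cyp1a2 1414 and 1065 CPM. Glul, glutamine synthetase of the cells that line the central vein, was lower in P60+14d WT at 203.99 CPM, against 315.9 CPM. Of 28 central genes 23 passed the filter and 2 were at least 2-fold higher (Cyp2a5 and Cyp7a1), with a median log2 fold of 0.35 over the 28. Of 26 portal genes 24 passed, 1 was at least 2-fold higher (Hsd17b6, a steroid dehydrogenase) and 5 lower, with a median of -0.03. Those 5 were Pck1, G6pc, Ctsc, Gldc and Spp1. Over all compared genes 1.92% were at least 2-fold higher and 1.96% lower.

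Sorted bulk hepatocytes of the same series, which share no cell with these pools, give an outside measure of place. They compare 2 libraries of CD73-positive central cells with 2 of CD324-positive portal cells from P60 Alb-Cre; Rosa-tdTomato mice. Among the compared genes measured there, edgeR's quasi-likelihood test called 21.2% higher in central and 23.5% higher in portal cells. Of the genes at least 2-fold higher in P60+14d WT, 24 of 81 (29.6%) were central and 18 (22.2%) portal. Of those at least 2-fold lower, 14 of 81 (17.3%) were central and 39 (48.1%) portal.

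**Figure D3:**
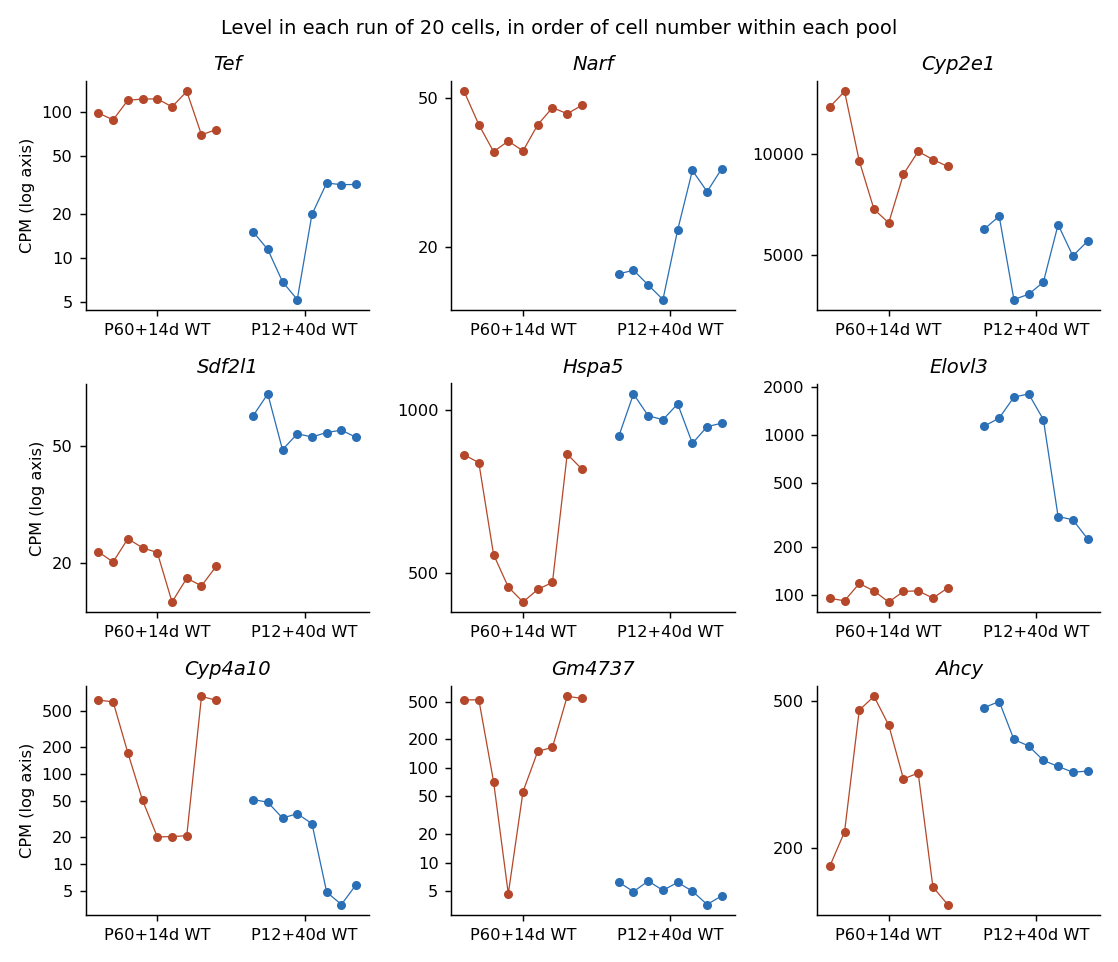
Level of 9 genes in each run of 20 cells, in CPM on log axes, with P60+14d WT (red, 9 runs) left of P12+40d WT (blue, 8 runs). Tef, Narf, Sdf2l1, Hspa5 and Elovl3 show no overlap between pools, Cyp2e1 overlaps at 1 end, and Cyp4a10, Gm4737 and Ahcy range widely inside P60+14d WT.

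Acute phase genes, which hepatocytes secrete under interleukin-6 and interleukin-1, were lower in P60+14d WT. Of 21 genes 19 passed the filter, 7 were at least 2-fold lower and 0 at least 2-fold higher. Over all compared genes 1.96% were that much lower and 1.92% higher. The median log2 fold over all 21 was -0.73. Saa2, a serum amyloid A carried on lipoproteins, had 46.6 CPM in P60+14d WT and 5340 CPM in P12+40d WT, 114.6-fold apart. Saa1, its close copy, had 386 and 8458 CPM. As the sequences are near-identical, reads may have been split between Saa1 and Saa2. Lcn2, an iron-trapping lipocalin, had 3.15 CPM in P60+14d WT and 118.9 CPM in P12+40d WT, and Orm2, an orosomucoid, 27.2 and 293.5 CPM.

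The abundant members differed less. Hp (haptoglobin) had 2687 CPM in P60+14d WT and 5629.7 CPM in P12+40d WT, and Fgg (fibrinogen gamma) 2485 and 4881 CPM. Fgb and Cp (ceruloplasmin) stood at log2 folds of -0.66 and -0.73, and their runs, with those of Fgg and Saa1, did not overlap between pools. Steap4 was the only member that passed the filter and lay above 0, at a log2 fold of 0.06, which is below the median of all genes.

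Saa2 changed in steps along the cell numbers, and the steps were not those of the clock alone. In P12+40d WT, cells 1 to 39 held between 3015 and 43598 CPM, with a median of 16541 CPM. Cells 40 to 95 held between 72.5 and 712 CPM, with a median of 152.9 CPM, and cells from 96 on between 190.9 and 20412 CPM, with a median of 2515 CPM. The cut after cell 39 was placed where the first 2 of these stretches do not touch, and the cut after cell 95 is that of the clock score. In P60+14d WT the cut was placed after the last cell with no Saa2 count, P60_14d_WT_138. Each of the 46 later cells thus had some by construction, with a median of 75.7 CPM. Of the cells up to the cut, 72 had no count, and the highest held 647.2 CPM.

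Lcn2 followed the same steps in P12+40d WT. Lcn2 had 408 and 316.7 CPM in the runs of cells 1 to 40, 4.94 and 5.25 CPM in those of cells 41 to 80, and 82.7 to 122.5 CPM in the 3 runs after cell 100. All 9 runs of P60+14d WT lay between 1.01 and 11.6 CPM for Lcn2, so cells 41 to 80 of P12+40d WT were within that range. The pool difference of Lcn2 and Saa2 is thus mostly the level of the other P12+40d WT cells.

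Cdkn1a, Ddit4 and Mt2 were among the 12 smallest folds, and all 3 are known to answer to stress. Of the 10 heat shock and 4 ATF4 genes that passed the filter 0 reached 2-fold, beside 3.88% of all compared genes. At that share, lists this short may well hold none. Ddit3, a growth arrest gene of the ATF4 arm, was higher in P60+14d WT at 39.6 CPM, against 23.6 CPM in P12+40d WT, with overlapping runs. Cdkn1a, the cell cycle inhibitor p21, had 0.531 CPM in P60+14d WT and 21.6 CPM in P12+40d WT, in 10.9% and 74.4% of cells. By runs it had 0 to 2.18 CPM in P60+14d WT, against 20.5 to 41.6 CPM in the first 5 and 2.15 to 3.53 CPM in the last 3 runs of P12+40d WT. Ddit4, an inhibitor of mTORC1 induced by stress and glucocorticoids, had 2.21 and 26.3 CPM, and its highest run, 90.1 CPM, was cells 1 to 20 of P12+40d WT. Mt2, a metallothionein, had 13.8 CPM in P60+14d WT and 97.9 CPM in P12+40d WT. Of the 14 p53 target genes listed 4 passed the filter, and Cdkn1a was the only 1 of them past 2-fold; Mdm2, the ubiquitin ligase of p53, had 20.03 and 19.99 CPM.

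Chaperones of the endoplasmic reticulum were lower in P60+14d WT, most of them by less than 2-fold. All 20 genes of the unfolded protein response passed the filter, 19 had a log2 fold below 0, 4 were at least 2-fold lower and none higher, with a median of -0.66. Over all compared genes 1.96% were at least 2-fold lower. In 10 of the 20 the runs of the pools did not overlap, where 1.83% of all compared genes were lower without overlap. Sdf2l1, an ER chaperone cofactor, had 19.7 CPM in P60+14d WT (runs from 14.6 to 24.1) and 57.3 CPM in P12+40d WT (runs from 48.6 to 75.4). Hspa5, the master chaperone BiP, had 612 and 961 CPM, with runs from 442 to 829 CPM in P60+14d WT and from 868 to 1071 CPM in P12+40d WT. Dnajb9 (71.2 and 160.4 CPM), Creld2 (92.03 and 198.4 CPM) and Manf (183.01 and 382 CPM), all ER-resident or secreted under ER stress, completed the 4 past 2-fold. Xbp1, the transcription factor that drives many of these genes, was the exception at 94.6 CPM in P60+14d WT and 78.5 CPM in P12+40d WT, counted over all its splice forms.

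**Figure D4:**
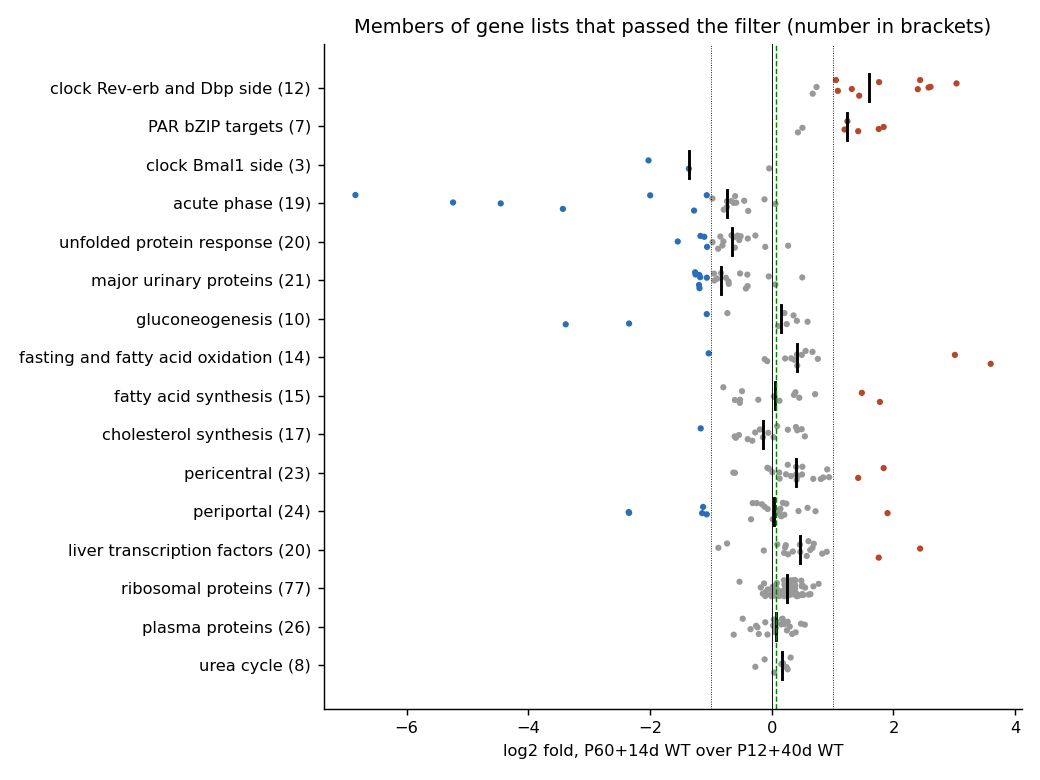
Log2 fold, P60+14d WT over P12+40d WT, of the members of 16 gene lists that passed the filter, with red points at least 2-fold higher and blue points at least 2-fold lower. Black bars are list medians and the green dashed line is the median of all 4482 genes, 0.07; the 2 clock lists lie on opposite sides, and the acute phase, unfolded protein and urinary protein lists lie to the left.

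Fasting and feeding genes did not move as a block. G6pc (glucose-6-phosphatase) had 68.1 CPM in P60+14d WT and 346 CPM in P12+40d WT, Pck1 (PEPCK, which commits to gluconeogenesis) 3215 and 6737 CPM, and Igfbp1, which binds insulin-like growth factors and is shut off by insulin, 37.3 and 389 CPM. The other 7 of the 10 gluconeogenic genes were within 2-fold, and the median of the list was 0.16. Srebf1 (the lipogenic factor SREBP1) had 261.8 CPM in P60+14d WT and 76.4 CPM in P12+40d WT, and Angptl8, a hepatokine of the fed state listed in the table as Gm6484, 213.8 and 25.4 CPM. Fasn, the fatty acid synthase that SREBP1 drives, had 204.01 and 158.4 CPM, and the 16 genes of fatty acid synthesis had a median log2 fold of 0.04.

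Elovl3, which elongates very long fatty acids and cycles in mouse liver, was lower in P60+14d WT by 9.78-fold, at 102.9 CPM against 1006 CPM. Its P60+14d WT runs stayed within 90.2 to 117.9 CPM, while those of P12+40d WT were 1143 to 1818 CPM in the first 5 and 224.8 to 309.9 CPM in the last 3. Cyp4a10 and Cyp4a14, omega-hydroxylases induced by PPAR-alpha, had 306.5 and 61.5 CPM in P60+14d WT, against 25.3 and 7.63 CPM in P12+40d WT. Cpt1a, another PPAR-alpha gene and the gate of mitochondrial fatty acid oxidation, differed less, at 192.9 CPM in P60+14d WT and 114.1 CPM in P12+40d WT.

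The P60+14d WT pool had its own steps, in metabolic and in clock genes. Cyp4a10 had 634 to 729 CPM in cells 1 to 40 and in those after cell 140, 171.8 CPM in cells 41 to 60, and 20 to 50.99 CPM in cells 61 to 140. Srebf1 had the opposite order, with 43.3 to 73.4 CPM in cells 1 to 40 and in those after cell 140, and 366 to 418 CPM in cells 41 to 140. The runs of P12+40d WT lay between 47.1 and 102.9 CPM for Srebf1. The higher pool level of Srebf1 in P60+14d WT therefore belongs to cells 41 to 140. Clock genes stepped at the same cells, in both directions. Ciart had 33.6 to 44.8 CPM in cells 1 to 40 and in those after cell 140, and 13.4 to 21.9 CPM in cells 41 to 140, and Usp2 had 94.3 to 124.8 and 63.97 to 77.7 CPM. The opposite order was seen in Nr1d1, with 10.4 to 15.3 CPM in cells 1 to 40 and after cell 140 and 21.7 to 30.1 CPM between them, and in Tef, with 70 to 98.7 and 108.9 to 138.9 CPM. The steps of Tef and Usp2 stayed above every run of P12+40d WT.

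The top 2 of all folds belong to copies of other genes, whose reads a counter may split. Gm4737 (chromosome 16, 46152985 to 46155077, GRCm38.p6, annotated as protein-coding) had 272.6 CPM in P60+14d WT and 5.20 CPM in P12+40d WT. It shares the RefSeq synonym AL024110 with Ahcy on chromosome 2, which codes for S-adenosylhomocysteine hydrolase. In P60+14d WT, Gm4737 had 522 to 569 CPM in cells 1 to 40 and in those after cell 140, and 4.68 CPM in cells 61 to 80, while Ahcy had 140.7 to 221.4 CPM and 516 CPM there. The P12+40d WT runs stayed at 3.60 to 6.38 CPM for Gm4737 and 321.3 to 499 CPM for Ahcy. Added together they gave 584 CPM in P60+14d WT and 385 CPM in P12+40d WT, a log2 fold of 0.60 in place of 5.71. Rps26-ps1, a pseudogene of Rps26 on chromosome 8, had 59.6 CPM in P60+14d WT and 2.02 CPM in P12+40d WT. In P60+14d WT it had 101.6 to 213.7 CPM in cells 1 to 40 and after cell 140. It had 20.04 CPM in cells 41 to 60 and 1.45 to 2.40 CPM in cells 61 to 140. Summed with Rps26 it gave 303.5 CPM in P60+14d WT and 278.4 CPM in P12+40d WT.

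Major urinary proteins, pheromone carriers made in bulk by male mouse liver under growth hormone, were lower in P60+14d WT. All 21 genes passed, 19 were below 0 and 7 at least 2-fold lower, beside 1.96% of all compared genes. The median log2 fold was -0.83. Mup9 had 1497 CPM in P60+14d WT and 3579.6 CPM in P12+40d WT, while Mup3, the most abundant, had 29736 and 30749 CPM. These genes are near-identical copies, so their single values are uncertain. Their sum was 60998 CPM in P60+14d WT and 79120 CPM in P12+40d WT. Of 79 ribosomal protein genes 77 passed, none was past 2-fold and 68 were above 0, with a median of 0.24; of 26 plasma protein genes all passed and none was past 2-fold. The 32 nuclear genes of oxidative phosphorylation and the 8 of the urea cycle likewise held no gene past 2-fold. Over all compared genes the share past 2-fold was 3.88%, so the shorter of these lists may well hold none.

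The 4 factors that the study knocked out were all higher in P60+14d WT, Tef alone past 2-fold. Nr2f2 (the orphan receptor COUP-TFII) had 44.96 CPM in P60+14d WT and 24.03 CPM in P12+40d WT, with runs of 39.9 to 52.6 and 19.2 to 28.03 CPM that did not overlap. Usf1, a basic helix-loop-helix factor that binds E-boxes, had 68.6 and 44.2 CPM with overlapping runs. The pools labelled Nr2f2-KO had 23.1 CPM of Nr2f2 at P60+14d, below the WT pool, and 31.6 CPM at P12+40d, above it. The pools labelled Usf1-KO had 116.6 CPM of Usf1 at P60+14d, above the WT pool, and 30.1 CPM at P12+40d, below it. The pool labelled Xbp1-KO had 81.5 CPM of Xbp1, against 78.5 CPM in P12+40d WT, and the pool labelled Tef-KO 44.1 CPM of Tef, against 19.49 CPM in P12+40d WT. A count over a whole gene does not read an edit, so these counts neither check the labels nor speak against them. For Tef the WT pools were farther apart than the pool labelled Tef-KO and its WT pool, and for Usf1 less far apart than the pool labelled Usf1-KO and its WT pool at P60+14d.

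The stage difference was fitted over 6 pools, those labelled WT, Nr2f2-KO and Usf1-KO at both stages, with treatment as a block. The WT pools are among the 6, so this fit cannot show whether the difference holds beyond WT. edgeR's quasi-likelihood test, two-sided with Benjamini-Hochberg adjustment, called 0 of 16183 genes (0%), with 2 residual degrees of freedom, and 1070 had an unadjusted p under 0.05 (6.61%). DESeq2 called 1.22%. Usp2 came nearest of the clock genes, at a log2 fold of 2.85 ± 0.22 (SE) and an adjusted p of 0.174 by edgeR. Each SE here was worked back from the F value of the test and is not the spread of the treatments. Tef stood at 2.01 ± 0.50 and Narf at 0.82 ± 0.20, both with an adjusted p of 0.727, and Cyp2e1 at 0.59 ± 0.27 with an adjusted p of 0.729. By DESeq2, Usp2 (adjusted p = 1.22e-25) and Tef (adjusted p = 0.000904) passed, and Narf (0.0552) and Cyp2e1 (0.317) did not. Usp2 and Tef are among the largest WT folds, and the WT pools enter the fit, so these p-values are no separate support.

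The treatments gave different answers for the same genes. The stage log2 fold of Tef was 2.44 in WT, 0.41 in the pools labelled Nr2f2-KO and 3.34 in those labelled Usf1-KO, and that of Arntl was -3.97, 0.71 and -5.96. Saa2 stood at -6.84 in WT, 4.17 in Nr2f2-KO and -8.81 in Usf1-KO. Usp2, at 3.04, 2.17 and 3.58, and Elovl3, at -3.29, -1.03 and -1.95, kept 1 direction. Without the Nr2f2-KO pools edgeR called 78 genes, 32 higher and 46 lower at P60+14d, among them Usp2 (adjusted p = 0.00305), Tef (0.0096), Cdkn1a (0.00145) and Arntl (0.0319). The pools left out there are those that went against WT for Arntl and Saa2. Usp2, Tef and Cdkn1a were named for their WT folds, so their calls there are no separate support either. Without the WT pools edgeR called 0 genes, and without the Usf1-KO pools also 0. Each fit without 1 treatment has 1 residual degree of freedom. The difference of the WT stage fold from that of the knockouts was tested as well, and edgeR called 0 of 17600 genes (0%), with 1.9% at an unadjusted p under 0.05, while DESeq2 called 47 (0.267%).

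**Figure D5:**
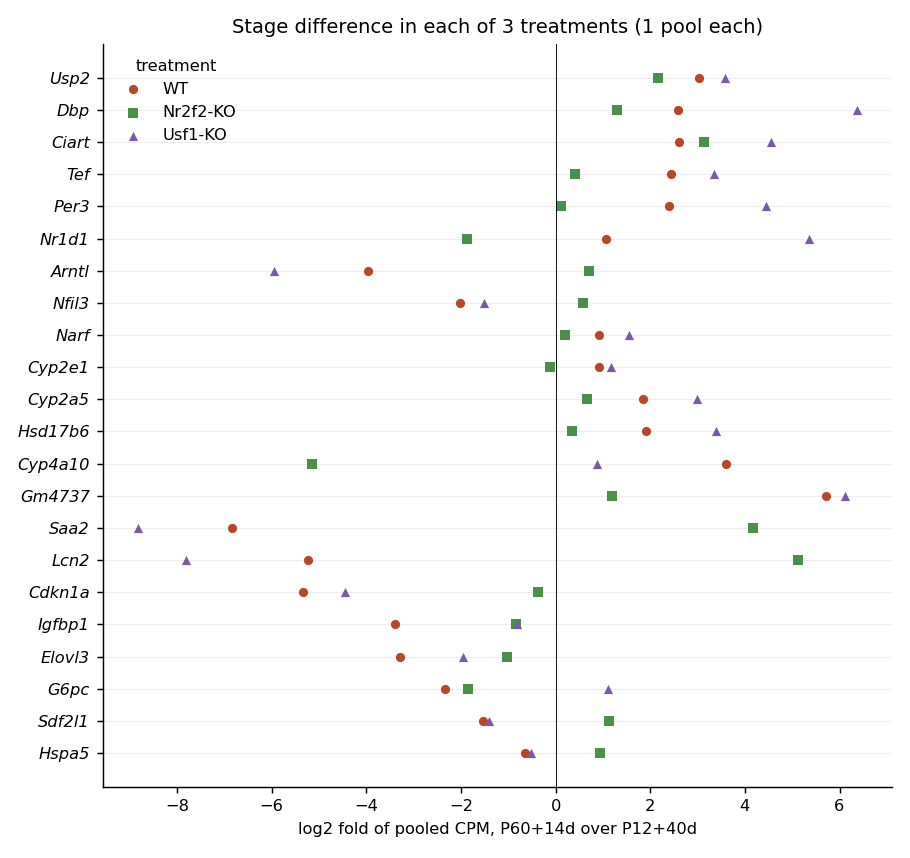
Log2 fold of pooled level, P60+14d over P12+40d, of 22 genes in WT (circles), Nr2f2-KO (squares) and Usf1-KO (triangles), 1 pool of cells per stage and treatment. WT and Usf1-KO lie on the same side for most genes, while Nr2f2-KO stands apart for Arntl, Saa2, Lcn2, Cyp4a10 and Sdf2l1.

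The clock score shows how far pools of 1 stage differed among themselves. Cells below 0 made up 0% of P60+14d WT, 63.98% of P60+14d Nr2f2-KO and 0% of P60+14d Usf1-KO cells. They made up 57.9% of P12+40d WT cells, and from 11.1% in Tef-KO to 98.4% in Usf1-KO among the other P12+40d pools. Both signs were thus found within each stage, so the stage label alone does not set the clock state. Between the WT pools, at 1 pool per stage, stage and clock state cannot be told apart.

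As a yardstick for the pools labelled as knockouts, the 3.88% of genes past 2-fold between the WT pools was set beside the same share for each of them and the WT pool of its stage. At P60+14d it was 6.11% for Nr2f2-KO and 2.82% for Usf1-KO. At P12+40d it was 4.31% for Nr2f2-KO, 9.37% for Usf1-KO, 1.98% for Xbp1-KO and 5.33% for Tef-KO. Between stages it was 4.01% in Nr2f2-KO and 14.6% in Usf1-KO. So 2 of the 6 pools labelled as knockouts were closer, by this count, to their WT pool than the WT pools were to each other. These pairs share WT pools, differ in numbers of cells (63 in P12+40d Usf1-KO) and have no replicates.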

How the data were processed

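Values are the authors' deposited counts per gene, whole numbers for each Smart-seq3 cell and each bulk library. The submitters' processing notes name HISAT2 2.1.0 and featureCounts 2.0.0 among other tools, and the builds GRCm38 and mm10, without tying them to steps. How strand and multi-mapping reads were counted is not stated there. Spike-in entries were dropped, and cells were summed per stage and treatment, as titled: 184 cells of P60+14d WT and 164 of P12+40d WT. CPM are the counts of a pool scaled to a common total; a fold is P60+14d WT over P12+40d WT, with fewer than 3 counts set to 3. Genes with at least 20 CPM and a count in at least 20% of cells of a pool were compared. Named are the 12 largest folds each way with plain symbols, members of each list, genes called by a fit and the targeted factors. Gm4737 and genes given only to complete a list were chosen after their values were seen. Members and lists were chosen with earlier results of these data known. Intervals are 95% and exact and cover counting error only; for shares they are Clopper-Pearson. Fits over 6 pools used edgeR 4.0.16 with TMM factors, and DESeq2 1.42.0 as an alternative. Steps were tested on simulated data. The simulated pools varied less than the real ones, whose common biological coefficient of variation was 0.396, so that test does not gauge the power of these fits. Doublets were not sought, and no cell barcodes are involved. A pooled level cannot tell apart fewer cells of a kind and less RNA per cell. The single-nucleus and mSTRT-seq tables were not used here.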

Additional observations from a re-analysis of the deposited data

How the results depend on the processing

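The share of compared genes past 2-fold between the WT pools, 3.88%, lay between 3.70% and 4.45% with TMM or DESeq2 scaling, means or trimmed means over cells, low-count cells left out or equal weight to the lobule ranges. It was 19.6% (3306 of 16903 genes) with no filter beyond 10 counts and 4.59% (47 higher and 58 lower of 2286) with at least 50 CPM in 50% of cells; fewer or more genes were compared by construction. Chosen after seeing the data, the median over runs gave 5.12%, and leaving out each run of cells in turn gave 3.70% to 4.17%. Genes past 2-fold with all runs apart made up 1.7% with runs of 20 cells, 1.00% (45 genes) with runs of 10 and 2.30% (53 higher and 50 lower) with runs of 40. The score difference of 0.34 was 0.35 without Cyp2e1 and Alb and 0.38 on the log2(CPM + 10) scale. Over the genes named, 3566 of 3576 values moved by less than the spread of runs, and Cyp2c40 turned to 0.27 with the median over runs. The share of genes called for stage, 0%, became 0.0062% with no scaling factors, 0.0052% with no filter and 0.0065% with no treatment block, 1 gene each. It was 1.22% with DESeq2, and 0% to 0.505% when the pools of 1 treatment were left out, with 78 genes called without Nr2f2-KO. The share called for stage in WT against the knockouts, 0%, became 0.295% (52 genes) with no scaling factors and 0.267% (47 genes) with DESeq2. The causes were not tested. No paired analysis was possible because the labels do not say what the numbers in the titles mark, and each stage and treatment is 1 pool. One pool per stage and treatment limits every comparison, and deep counts narrow counting error only.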

Other observations

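Liver transcription factors leaned to P60+14d WT. Of the 28 listed, 20 passed the filter, 17 of these had a log2 fold above 0, 2 were at least 2-fold higher (Tef and Nr1i3) and 0 lower, with a median of 0.47 over those seen. Over all compared genes 1.92% were at least 2-fold higher. In 7 of the 20 every run of P60+14d WT lay above every run of P12+40d WT, where 4.46% of all compared genes did. The lowest was Cebpb, a factor of the acute phase, at 22.98 CPM in P60+14d WT and 42.2 CPM in P12+40d WT, with overlapping runs. Of 17 cholesterol synthesis genes that passed, Hmgcs1, which makes HMG-CoA in the cytosol, was the one past 2-fold, at 141.8 CPM in P60+14d WT and 318.3 CPM in P12+40d WT. Of the 10 interferon and 9 Nrf2 genes that passed, 0 reached 2-fold either way, beside 3.88% of all compared genes, a share at which such short lists may well hold none.

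Values of the remaining genes among the 12 largest and 12 smallest folds follow. Pcsk4, a proprotein convertase, had 32.9 CPM in P60+14d WT and 4.13 CPM in P12+40d WT, and no run of P60+14d WT fell to the runs of P12+40d WT. Hsd17b6 had 227.4 and 60.8 CPM, likewise with runs apart, and Rgs16, a regulator of G protein signalling that cycles in liver, 77.6 and 21.4 CPM with overlapping runs. Slc45a3, a sugar transporter, had 7.05 CPM in P60+14d WT and 42.8 CPM in P12+40d WT, and Lgalsl, a galectin-like gene, 3.38 and 21.3 CPM, both with runs apart. Spp1 (osteopontin) had 4.54 and 23.2 CPM, in 27.7% of P60+14d WT cells and 43.3% of P12+40d WT cells. It is made by cholangiocytes as well as hepatocytes, and of the other cholangiocyte markers none passed the filter.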
